A study of Mus musculus with 6 samples.

Results

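The contactins and the contactin-associated proteins are cell-adhesion molecules of the nervous system, and 6 of their genes, *Cntnap1*, *Cntnap2*, *Cntnap4*, *Cntn1*, *Cntn2* and *Cntn4*, were followed here among the 19465 genes counted in every section. They were chosen by symbol, after a near-complete fall of *Cntnap2* in the aged sections had been seen, to set that fall beside the levels of its relatives. The aged-to-adult values of these 6 genes are therefore given as a description, without a test. Counts came from 6 sections of formalin-fixed brain, cut coronally from male C57BL/6J mice and profiled with Visium, which captures gene-specific probe pairs on an array of spots that can each hold several cells. There were 2 sections of P21 mice bred in-house, 2 of adult mice of 12 to 15 weeks, and 2 of mice aged 28 months. The labels name no transgene and no treatment for any group. P21 and adult sections were mounted directly on version 1 slides, while the aged sections were stained on glass and their probes moved onto version 2 slides by the CytAssist instrument with a modified probe design. The version of the counting software, Space Ranger, also changed, from 2.0.0 for P21 and adult to 3.1.1 for aged sections. Age and these changes of chemistry and software cannot be told apart in any comparison with the aged sections. P21 and adult sections shared both their slide version and their software version.

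Contactins are held on the outer face of the cell membrane by a lipid anchor, and contactin-associated proteins span it. Contactin-1 pairs with Caspr (*Cntnap1*) at the paranodes that flank each node of Ranvier, where the pair binds glial neurofascin on the myelin loops. Contactin-2 (*Cntn2*, also known as TAG-1) and Caspr2 (*Cntnap2*) form the neighboring juxtaparanode and gather Kv1 potassium channels there. Contactin-4 guides axons, and Caspr4 (*Cntnap4*) is a synaptic protein best known from interneurons.

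*Cntnap2* is among the longest genes of the mouse. In the GENCODE vM21 annotation of GRCm38, the build of the counts (mm10), it spans 2244857 bases on the plus strand of chromosome 6, from 45059357 to 47304213, with 6 annotated transcripts. The longest coding transcript has 24 exons and 9827 bases, and a shorter one of 4 exons starts at 47244387 and keeps the 3′ part of the gene. *Cntn4* lies on the same chromosome, from 105677660 to 106699310. The remaining members lie on chromosome 11 (*Cntnap1*, from 101170523 to 101190724), chromosome 8 (*Cntnap4*, from 112570043 to 112882717), chromosome 15 (*Cntn1*, from 92051165 to 92341967) and chromosome 1 (*Cntn2*, from 132509427 to 132543256).

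Because each gene is read through short probes, the stretches of coding sequence that *Cntnap2* shares letter for letter with its relatives are shown. The sequences of the probes themselves were not used here. The longest run shared with a member was 20 bases, with *Cntnap1*, and the longest shared with any gene of the family was 25 bases, with *Cntnap3*. The run shared with *Cntnap4* was 17 bases, and those shared with the 6 contactins were 12 or 13 bases. Capitals mark the shared run, 5′ to 3′ on the coding strand, with flanking bases in lower case. The *Cntnap2* stretches lie at chr6:46421397-46421440 in exon 12, chr6:46001205-46001245 in exon 6 and chr6:46001223-46001271 in exon 6, in the order shown. The partner stretches lie at chr11:101182486-101182529 (plus strand, exon 12), chr8:112752971-112753011 (plus strand, exon 6) and chr13:64793309-64793357 (minus strand, exon 6).
*Cntnap2*: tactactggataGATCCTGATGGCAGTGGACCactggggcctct
*Cntnap1*: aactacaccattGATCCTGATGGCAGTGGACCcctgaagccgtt
*Cntnap2*: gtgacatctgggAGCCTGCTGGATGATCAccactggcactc
*Cntnap4*: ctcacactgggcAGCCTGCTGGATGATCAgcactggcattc
*Cntnap2*: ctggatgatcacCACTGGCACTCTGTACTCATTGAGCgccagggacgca
*Cntnap3*: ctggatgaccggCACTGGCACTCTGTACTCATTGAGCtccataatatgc
In all 3 pairs the run sits in an exon of the same number in both genes, and ends where the bases of the pair differ.

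Between 2917 and 3679 spots per section were kept, with 42422997 to 106783660 unique molecular identifiers (UMIs) per section. Levels are CPM, a gene's counts scaled to a fixed total of UMIs, after scaling between sections by edgeR's trimmed mean of M values, and levels of different genes were not compared because each gene has its own probes. Spots were grouped by clustering without the family, neurexin and partner genes, and clusters were named cortex, hippocampus, thalamus, hypothalamus, striatum or fiber tracts by fixed marker genes, which left 16.68% of spots unnamed. Barcodes were shared between sections of the same slide version, 2612 to 3364 per pair, and by no pair of different versions, as the barcodes name positions on the slide. The P21 sections carried more erythrocyte marker RNA (1310 to 2326 CPM over 4 genes) than the adult sections (172 to 328 CPM). A summed count does not tell fewer cells of a type from less RNA per cell.

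*Cntnap2* was nearly absent from the aged sections. The P21 sections held it at 28.1 and 35.4 CPM, the adult sections at 21.3 and 25.1 CPM, while 0.61 and 0.42 CPM remained with age. The P21 values rest on 2471 and 1471 UMIs, the adult values on 1089 and 1242 UMIs, and the aged values on 52 and 48 UMIs from sections of 81997167 and 106783660 UMIs. The aged sections did not overlap with the others, although they include the section with the most UMIs. The fitted difference between aged and adult sections was -5.50 on the log2 scale (SE 0.18, n = 2 sections per group), a 45.4-fold lower level. Before scaling, the summed counts of the adult sections gave 42.4 times the aged level, with a 95% exact interval of 34.7 to 52.4 that covers counting error only.

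**Figure D1:**
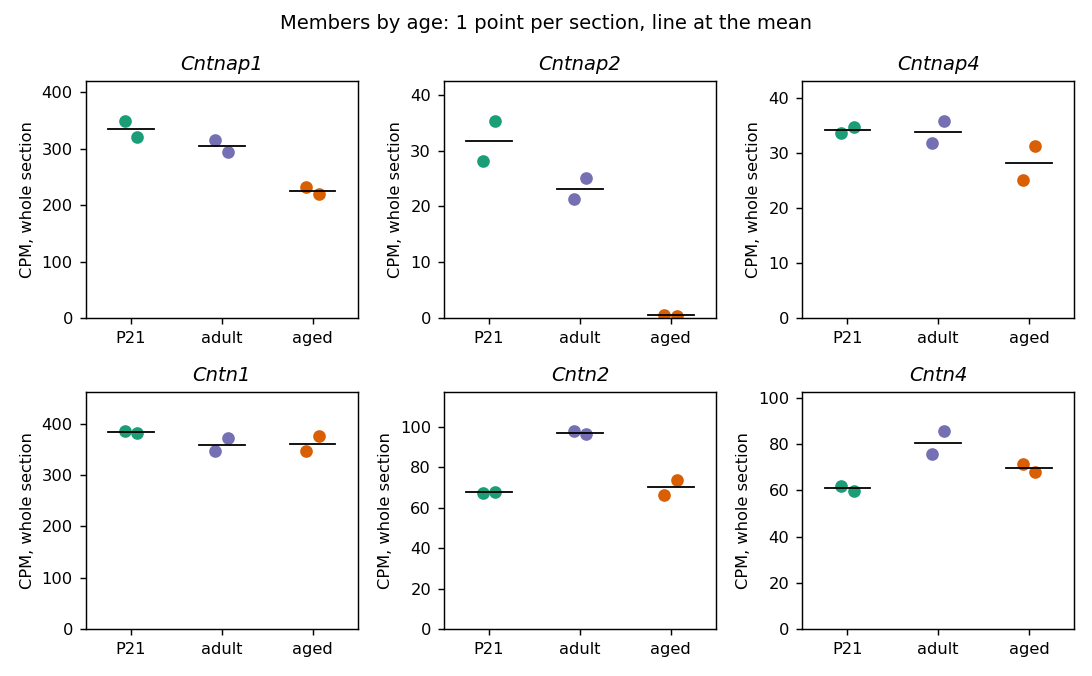
CPM over whole sections (y axes from 0, a scale of its own for each gene) for the 6 genes in each age group, with 1 point per section and a line at the mean of the 2 sections. *Cntnap2* is at 0.61 and 0.42 CPM in the aged sections, while the other 5 genes stay within the range from 1.37-fold lower to 1.02-fold higher in aged than in adult sections.

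No other gene of comparable level behaved in this way. Of 9845 genes with at least 10 CPM in all 4 P21 and adult sections, 1 fell below 1 CPM in both aged sections, and it was *Cntnap2*. Of 10055 genes with at least 10 CPM in both adult sections, it alone was lower by 8 times or more in aged sections, and 0 genes were higher by as much. The next largest falls in that set were 7.03-fold for *Opalin*, an oligodendrocyte membrane protein, 4.81-fold for *Myoc*, and 3.37-fold for *Creb5*. The middle 95% of these genes lay between -0.60 and 0.73 on the log2 scale of aged over adult CPM before scaling. On that scale *Cntnap1* was at -0.31, *Cntnap4* at -0.14, *Cntn1* at 0.13, *Cntn2* at -0.35 and *Cntn4* at -0.09, all inside that interval, and *Cntnap2* was at -5.38. The reverse pattern was looked for as well: of 10116 genes with at least 10 CPM in both aged sections, 0 were below 1 CPM in all P21 and adult sections. There were 565 genes with 0 UMIs in all P21 and adult sections, and 493 of them had at least 1 UMI in an aged section, none reaching 10 CPM in both.

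**Figure D2:**
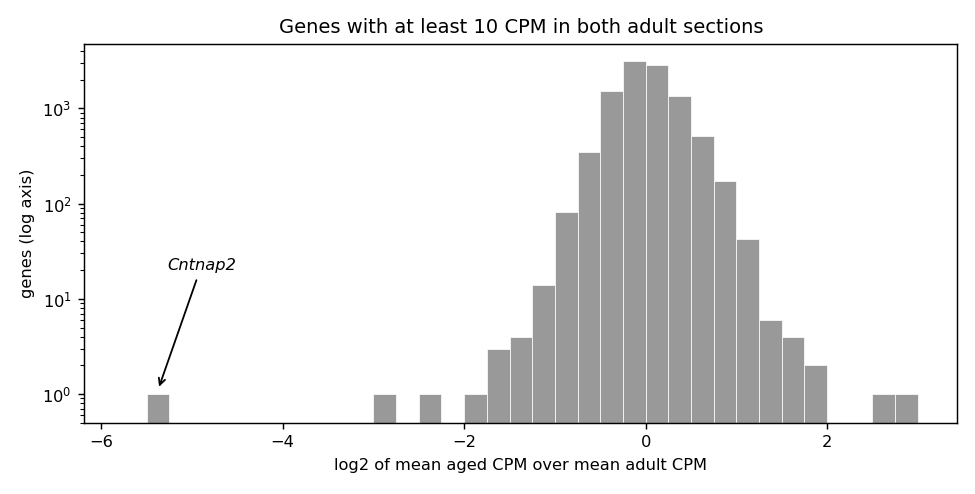
Number of genes (log axis) by the log2 ratio of mean aged CPM to mean adult CPM, in steps of 0.25, for the 10055 genes with at least 10 CPM in both adult sections, before scaling between sections. The single gene near -5.38 is *Cntnap2*, and the next lowest is at -2.81.

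The low level held in each region of the aged sections. In the cortex *Cntnap2* stood at 20.03 and 21.2 CPM in adult sections and at 0.46 and 0.37 CPM in aged sections. In the hypothalamus, where its adult level was among the highest, it stood at 31.0 and 38.3 CPM against 0.80 and 0.80 CPM. In the striatum it stood at 27.9 and 38.7 CPM against 1.41 and 0.15 CPM, the aged values resting on 8 UMIs and 1 UMI. Aged sections were thus below adult sections in these 3 regions without overlap, and the same was true of the hippocampus, the thalamus and the fiber tracts. By summed counts the adult level exceeded the aged level 50.6 times in the cortex (95% exact interval 33.6 to 79.7), 65.5 times in the hippocampus (29.7 to 180.1), 33.6 times in the thalamus (20.5 to 59.4), 42.2 times in the hypothalamus (27.3 to 69.0) and 45.4 times in the striatum (23.4 to 100.8). In the fiber tracts 173 adult UMIs faced 2 aged UMIs, a ratio of 74.6 (20.3 to 620.8). All 6 intervals hold the values from 33.6 to 59.4. In the choroid plexus spots the aged sections held 0 of 2925433 UMIs, against 43 UMIs and 22.8 CPM in the P21 sections and 18 UMIs and 15.8 CPM in the 1 adult section with enough of these spots. The exact 95% upper limit of the aged level was 1.26 CPM. A floor of 3 counts over the aged group would be 1.03 CPM, and the P21 level was 22.3 times that floor.

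**Figure D3:**
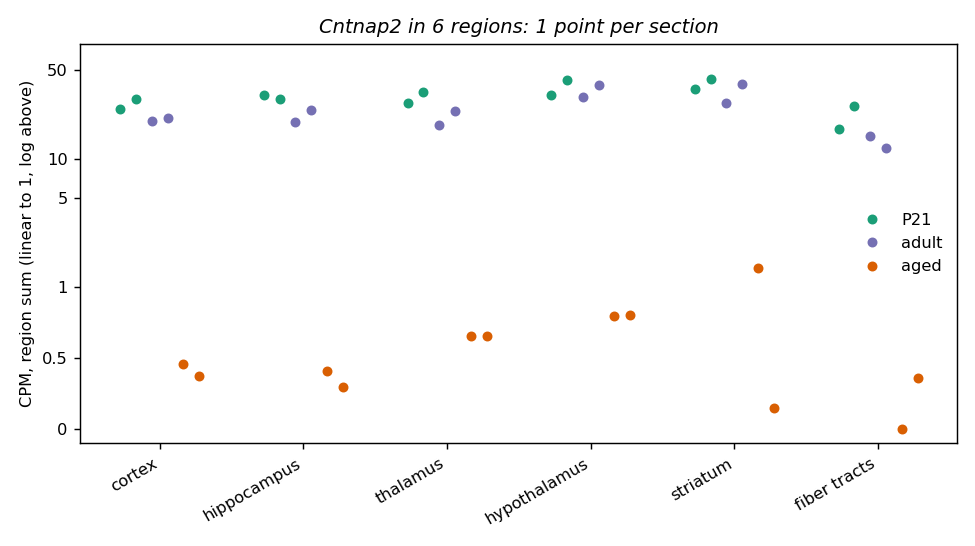
*Cntnap2* CPM in 6 regions (y axis linear up to 1 and logarithmic above), with 1 point per section colored by age. The 4 P21 and adult sections lie between 12.3 and 42.8 CPM in every region, and the aged sections between 0 and 1.41 CPM.

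The 52 and 48 UMIs left in aged sections lay almost all in separate spots. *Cntnap2* was counted in 1635 of 3598 and 1139 of 3314 P21 spots, in 840 of 2917 and 949 of 3259 adult spots, and in 52 of 3679 and 47 of 3569 aged spots. No aged spot held more than 2 *Cntnap2* UMIs, and P21 and adult spots held up to 8. With every spot thinned to 5000 UMIs, P21 sections had *Cntnap2* in 12.3% and 15.95% of spots, adult sections in 9.36% and 11.8%, and aged sections in 0.472% and 0.198%, leaving out 9 to 98 shallower spots per section. Moran's I, which is near 0 for a gene scattered at random over the spots, was 0.017 to 0.037 for *Cntnap2* in P21 and adult sections and -0.001 and 0.022 in aged sections. The value of aged section 2 lay within the P21 and adult range. With so few UMIs the aged scores and their percentiles cannot tell random scatter from a weak pattern. Among all genes listed in a section, *Cntnap2* was at percentiles 59.6 to 72.4 in P21 and adult sections and 11.9 and 43.7 in aged sections, and *Cntnap1* at 91.9 to 93.7 and at 94.2 and 93.6.

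The other 5 members ranged from 1.37-fold lower to 1.02-fold higher in aged than in adult whole sections. After scaling, the median gene stood at -0.11 on the log2 scale of aged against adult sections, against which the following differences should be read. *Cntnap1* stood at 316 and 294 CPM in adult sections and at 231 and 220.0 CPM in aged sections, a difference of -0.42 (SE 0.07). *Cntn2*, the juxtaparanodal partner of Caspr2, stood at 97.8 and 96.4 CPM against 66.3 and 73.8 CPM (-0.46, SE 0.07). By region its difference was -0.66 in the hippocampus, -0.31 in the hypothalamus and -0.15 in the thalamus. It was -0.04 in the cortex, -0.01 in the striatum and 0.06 in the fiber tracts. The fiber tracts, where *Cntn2* is highest, gave 12092149 of 103735341 adult UMIs and 10427312 of 188780827 aged UMIs. The part of this shift in its whole-section difference was not tested. *Cntn4* stood at 75.7 and 85.7 CPM against 71.3 and 67.9 CPM (-0.20, SE 0.08). *Cntnap4* stood at 31.9 and 35.9 CPM against 25.1 and 31.3 CPM (-0.25, SE 0.10). For these 4 genes both aged sections lay below both adult sections, an order that 52.9% of the 11338 genes tested also showed. *Cntn1*, the paranodal partner of Caspr, overlapped between ages, at 348 and 372 CPM in adult sections and 348 and 376 CPM in aged sections (0.02, SE 0.07). By size alone, 1 of the 6 members, *Cntnap2*, differed by over 1.5-fold over whole sections, as did 9.1% of all genes, 5.39% as lower; since its fall led to the choice of the genes, the count is a description.

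Region by region, 12 of the 36 pairs of a member and a region were lower by over 1.5-fold in aged sections and 0 were higher by as much, a description by size without a test, where 15.6% of all gene and region pairs differed by over 1.5-fold and 7.52% as lower. *Cntnap2* made up 6 of the 12. The others were *Cntnap1* in the striatum and the fiber tracts, *Cntn4* in the hippocampus and the fiber tracts, *Cntn2* in the hippocampus, and *Cntnap4* in the fiber tracts. Of the 12, 4 were in the fiber tracts. There 27.2% of all genes had an adjusted p below 0.05 by edgeR and a change over 1.5-fold in either direction. That share is of tested calls in both directions and is not a like figure for the 4, counted by size as lower. *Cntn4* in the hippocampus went from 36.8 and 38.5 CPM in adult sections to 16.7 and 19.0 CPM in aged sections (-1.07, SE 0.13), while in the thalamus its level was 118 and 149 CPM in adult and 175 and 150.1 CPM in aged sections (0.28, SE 0.11). When spots were assigned by their highest marker panel instead of by cluster, the hippocampal difference of *Cntn4* was -0.42. In adult sections 254 of 350 and 307 of 424 hippocampal spots lay in the largest cluster of this region. In aged sections 154 of 284 and 126 of 240 did. The part of this shift in the hippocampal differences given here and below was not tested. *Cntn2* in the hippocampus stood at 53.9 and 52.6 CPM in adults and 34.0 and 33.7 CPM in aged sections (-0.66, SE 0.11; -0.54 by marker panel and -0.70 with library-size scaling), and in the fiber tracts, where it is highest, at 233 and 222 CPM against 233 and 243 CPM (0.06, SE 0.08). In the hippocampus the sum of 8 mature oligodendrocyte markers was 6225 to 6911 CPM in adult and 2989 to 3681 CPM in aged sections, and over whole sections 12993 to 13225 CPM against 7577 to 7998 CPM. In the fiber tracts the sum was 41035 to 42303 CPM in adult and 48171 to 50160 CPM in aged sections. In the striatum it was 9308 to 11196 CPM against 10050 to 11038 CPM. It was lower in the aged cortex, thalamus and hypothalamus, where 5, 5 and 2 of the 8 markers passed as lower. The part of this sum in the values of *Cntn2* was not tested. *Cntn1* was higher in both aged sections than in both adult sections in the thalamus, at 536 and 617 CPM against 400.0 and 422 CPM (0.49, SE 0.09), and in the hippocampus, at 443 and 460.4 CPM against 373 and 386 CPM (0.24, SE 0.08). The difference of *Cntnap1* in the striatum was under 1.5-fold without adult section 1 (-0.42) or aged section 1 (-0.45). Apart from *Cntnap2*, the members' regional differences spanned -1.20 to 0.49, and the 6 values of *Cntnap2* spanned -6.05 to -5.00. With single sections left out, its value ran from -7.48 (without aged section 1) to -4.52 (without aged section 2) in the striatum and from -9.37 (without aged section 2) to -5.20 (without aged section 1) in the fiber tracts, where the aged sections held 9 and 2 UMIs. Aged section 1 held 0 UMIs in the fiber tracts, so that -9.37 depends on the prior count of the fit.

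**Figure D4:**
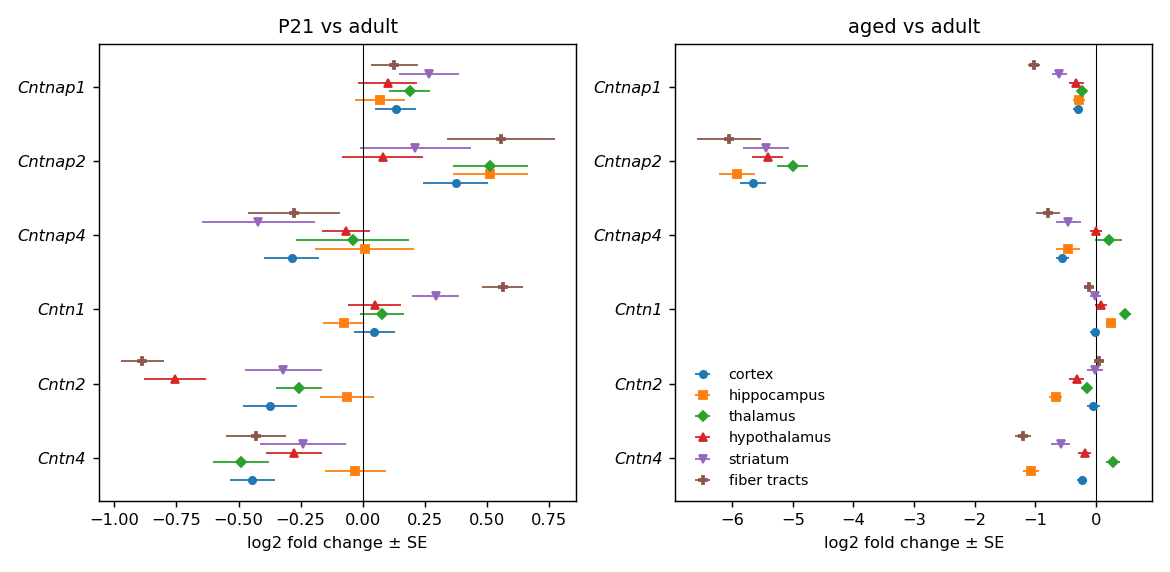
Log2 fold change with its SE for the 6 genes in 6 regions, P21 against adult on the left and aged against adult on the right, from 2 sections per age. In the aged comparison *Cntnap2* lies between -6.05 and -5.00 and all other points lie between -1.20 and 0.49, and the 2 panels have different x axes.

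The fiber tracts are described separately, and their make-up differed with age too. *Cntnap1* fell from 205 and 183 CPM in adult to 93.9 and 98.6 CPM in aged fiber tracts (-1.02, SE 0.10), *Cntn4* from 46.3 and 51.0 to 23.5 and 19.2 CPM (-1.20, SE 0.13), and *Cntnap4* from 22.3 and 25.7 to 10.8 and 16.8 CPM (-0.79, SE 0.20). With spots assigned by marker panel these differences were -0.75, -0.82 and -0.29, and without aged section 1 that of *Cntnap4* was -0.53. One cluster of fiber tract spots held 255 and 251 spots in aged sections and 1 to 28 spots in the other sections. In aged fiber tracts the summed level of 8 pan-neuronal markers was 2597 and 2606 CPM against 4842 and 5180 CPM in adults, and 5 of the 8 passed as lower. The sum of 6 microglial markers was 1867 and 1891 CPM against 599 and 671 CPM, with 5 of 6 higher, and the sum of 6 astrocyte markers was 6077 and 6094 CPM against 3082 and 3278 CPM, with 2 of 6 higher. None of these markers was at 0 in any section. The part of these shifts in the members' values was not tested. Over whole sections the pan-neuronal sum was 7041 and 7111 CPM in aged against 8143 and 8280 CPM in adult sections. Of its 8 markers, 1 passed as higher and 1 as lower there, with a median of -0.04 beside -0.11 for all genes. Choroid plexus spots, of which 1 adult section had too few, showed *Cntnap1* at 177 CPM in the other adult section, at 174 and 156 CPM in P21 and at 57.2 and 60.8 CPM in aged sections. In the same spots the pan-neuronal sum was 4660 CPM in that adult section, 3547 to 3631 CPM in P21 and 1102 to 1216 CPM in aged sections. The microglial sum was 407 CPM in adult and 865 to 1027 CPM in aged spots, and the astrocyte sum 1798 against 3291 to 3543 CPM. The part of these shifts in the *Cntnap1* values was not tested.

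The rest of the family was tested in the same comparison by edgeR. With limits of an adjusted p below 0.05 and a change above 1.5-fold, 9.09% of all genes passed, 5.38% as lower. Of 7 further contactin and contactin-associated genes on the panel, 6 were detected widely enough for a test, and 2 were lower in aged sections: *Cntn6*, another contactin, at 29.2 and 35.2 CPM in adult and 18.4 and 18.5 CPM in aged sections (-0.79, SE 0.09, edgeR quasi-likelihood adjusted p = 3.19e-05), and *Cntnap5b*, a Caspr5 paralog, at 18.3 and 18.3 CPM against 10.2 and 13.2 CPM (-0.63, SE 0.11, edgeR adjusted p = 0.000799). *Cntnap5b* no longer passed the fold limit without aged section 1 (-0.45) or when counts were scaled by library size alone (-0.52). *Cntnap3*, whose coding sequence holds the longest run shared with *Cntnap2*, was at 9.84 and 11.1 CPM in adult and 7.48 and 6.92 CPM in aged sections (-0.53, SE 0.11, edgeR adjusted p = 0.00201), short of the fold limit. *Cntnap5a* (-0.32, SE 0.07), *Cntn3* (-0.12, SE 0.08) and *Cntnap5c* (0.08, SE 0.17) also stayed within 1.5-fold, and *Cntn5*, at 3.17 to 4.35 CPM in all 6 sections, was not tested. The median of the 6 tested genes was -0.43 and that of all genes -0.11. The steepest fall among them was that of *Cntn6* in the hippocampus, from 12.8 and 14.6 CPM to 2.74 and 2.69 CPM (-2.34, SE 0.21, edgeR adjusted p = 2.14e-05). *Cntnap5c* went the other way there, from 19.3 and 17.1 CPM to 26.3 and 34.2 CPM (0.74, SE 0.16, edgeR adjusted p = 0.00449). Over the regions 13 of 33 tests of these genes passed as lower and 1 as higher, where 14.8% of all gene and region pairs passed and 7.19% as lower. Of the 13, 4 were in the fiber tracts, where 27.2% of all genes passed.

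Neurexins are presynaptic adhesion proteins related in sequence to the contactin-associated proteins. *Nrxn3* stood at 413 and 437 CPM in adult and 299.7 and 293 CPM in aged sections (-0.51, SE 0.06, edgeR adjusted p = 6.14e-05), and *Nrxn2* at 616 and 605 CPM against 565 and 497 CPM (-0.19, SE 0.07, edgeR adjusted p = 0.0417), both short of the fold limit. In the fiber tracts *Nrxn3* passed it, at 294 and 284 CPM against 104 and 109 CPM (-1.44, SE 0.08, edgeR adjusted p = 3.01e-10). It also passed as lower in the hypothalamus (-0.78, SE 0.16, edgeR adjusted p = 0.00897). The 24 partner genes include ankyrins, spectrins, Kv1 channel subunits and other proteins of the node and its flanks. Of them, 1 passed as lower in aged sections and 0 as higher, where 9.09% of all genes passed. It was the matrix protein tenascin-C (*Tnc*), at 13.7 and 12.6 CPM in adult and 5.29 and 8.75 CPM in aged sections (-0.88, SE 0.18, edgeR adjusted p = 0.00194). *Tnc* no longer passed without aged section 1. The partner median was -0.19. By region 18 of 141 partner tests were lower and 3 higher, beside the 7.19% lower and 14.8% in either direction of all gene and region pairs. Of the 18, 11 were in the fiber tracts.

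P21 and adult sections share their slide version, so that this comparison is free of the change of chemistry, and it was tested for the members. Over whole sections 0 of 6 passed both limits, where 5.17% of all genes did, and 3 had an adjusted p below 0.05, where 30.1% of all genes had. *Cntn2* stood at 67.4 and 67.8 CPM at P21 and 97.8 and 96.4 CPM in adults (-0.52, SE 0.07, edgeR adjusted p = 0.000321), *Cntn4* at 62.0 and 59.8 CPM against 75.7 and 85.7 CPM (-0.40, SE 0.08, edgeR adjusted p = 0.00254), and *Cntnap2* at the levels given above (0.45, SE 0.13, edgeR adjusted p = 0.0207). Thus *Cntn2* and *Cntn4* were lower and *Cntnap2* higher in the younger mice, each by less than 1.5-fold and without overlap between the groups, as for 72.9% of all genes. Without P21 section 1 the difference of *Cntnap2* was 0.62 and passed both limits. For *Cntnap1* (0.14, SE 0.07), *Cntn1* (0.10, SE 0.07) and *Cntnap4* (0.02, SE 0.10) the adjusted p was 0.139, 0.278 and 0.911 by edgeR.

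By region, 2 of 36 pairs passed, both of *Cntn2* and both lower at P21, where 6.08% of all gene and region pairs passed and 2.27% as lower. In the fiber tracts *Cntn2* stood at 119 and 133 CPM at P21 against 233 and 222 CPM in adults (-0.89, SE 0.09, edgeR adjusted p = 4.74e-07). In the hypothalamus it stood at 54.8 and 62.5 CPM against 102 and 94.7 CPM (-0.76, SE 0.13, edgeR adjusted p = 0.0103), a call that was lost without P21 section 1 (-0.66), P21 section 2 (-0.85) or adult section 1 (-0.70) and when spots were assigned by marker panel (-0.47). The largest hypothalamic cluster held 496 of 648 and 428 of 565 spots of this region at P21, and 214 of 351 and 226 of 415 in adults. The part of this shift in the difference was not tested. In the hippocampus the difference of *Cntn2* was -0.06 (SE 0.11). The age difference of *Cntn2* varied between regions in a test of the region-by-age terms with the section as a block (edgeR adjusted p = 0.000345), as did that of *Cntn1* (edgeR adjusted p = 7.47e-05), and 13.4% of all genes passed that test. *Cntn1* stood at 375 and 362 CPM in P21 and 239.9 and 249 CPM in adult fiber tracts (0.56, SE 0.08, edgeR adjusted p = 4.85e-05), just under 1.5-fold, and its differences in the other 5 regions ranged from -0.08 to 0.29. In the P21 fiber tracts *Cntn1* was therefore higher and *Cntn2* lower than in adults. There the sum of 8 mature oligodendrocyte markers was 83136 and 101627 CPM against 41035 and 42303 CPM in adults, with 8 of 8 higher and none at 0, and its part in these 2 differences was not tested. For *Cntnap2*, *Cntn4*, *Cntnap4* and *Cntnap1* the region-by-age test gave an edgeR adjusted p of 0.402, 0.400, 0.857 and 0.861.

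None of the 6 further family genes tested passed both limits between P21 and adult over whole sections, where 5.17% of all genes did. *Nrxn2* (0.24, SE 0.07, edgeR adjusted p = 0.0241) and *Nrxn3* (-0.21, SE 0.06, edgeR adjusted p = 0.0226) stayed under the fold limit as well. In single regions 2 of 34 tests of the further family genes passed, both as higher at P21, where 6.08% of all gene and region pairs passed. They were *Cntnap3* in the thalamus, at 11.4 and 9.47 CPM against 5.15 and 4.39 CPM (1.148, SE 0.26, edgeR adjusted p = 0.0126), and *Cntn6* in the hippocampus, at 21.1 and 20.2 CPM against 12.8 and 14.6 CPM (0.62, SE 0.16, edgeR adjusted p = 0.0238). Of the 24 partners, 1 passed as higher at P21 and 0 as lower over whole sections, beside the same 5.17% of all genes. It was *Nfasc*, which encodes the neurofascins that contactin-1 and Caspr bind at the paranode, with 733 and 744 CPM against 409 and 426 CPM (0.83, SE 0.07, edgeR adjusted p = 1.25e-05). The difference of *Nfasc* was largest in the fiber tracts, at 1.44 on the log2 scale (SE 0.11, edgeR adjusted p = 1.37e-08). The mature oligodendrocyte sum was also higher at P21, at 26370 to 27396 CPM against 12993 to 13225 CPM over whole sections. In the fiber tracts it was 83136 to 101627 CPM against 41035 to 42303 CPM. Its part in the *Nfasc* values was not tested.

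Within sections, the members differed in where they were counted. Each region was compared with the mean of the other 5 inside the same sections, so that a factor acting on a whole section drops out, and 11 of 36 member and region pairs passed, where 15.9% of all gene and region pairs did. Of these 11, 5 passed under all 9 alternatives, which included leaving out each section, leaving out both aged sections and assigning spots by marker panel. They were *Cntn2* in the fiber tracts (1.60, SE 0.09, edgeR adjusted p = 4.15e-15) and in the hippocampus (-0.996, SE 0.11, edgeR adjusted p = 2.04e-08), *Cntn4* in the thalamus (1.48, SE 0.12, edgeR adjusted p = 2.71e-11) and in the hippocampus (-1.06, SE 0.16, edgeR adjusted p = 1.35e-06), and *Cntnap4* in the hypothalamus (1.09, SE 0.10, edgeR adjusted p = 3.70e-10). *Cntnap1* (-0.78, SE 0.08) and *Cntnap2* (-0.70, SE 0.12) were low in the fiber tracts, calls that marker-panel assignment ended, and no region of *Cntn1* passed the fold limit.

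In order of level, *Cntn2* ran from the fiber tracts (197 ± 55.7 CPM, SD, n = 6 sections) through the thalamus (96.1 ± 8.89) and the hypothalamus (78.6 ± 18.7) to the hippocampus (45.6 ± 9.38), and each of these was above the next region in 6 of 6 sections. The striatum and the cortex lay between the last 2, and the striatum was above the cortex in 3 of 6 sections, so that their order was not settled. *Cntn4* ran from the thalamus (130.1 ± 32.9) through the cortex (80.3 ± 11.3) to the striatum (55.2 ± 12.4), with each of the first 2 above the next in 6 of 6 sections. Its 3 lowest regions were the hypothalamus (45.2 ± 4.67), the fiber tracts (35.5 ± 12.4) and the hippocampus (30.7 ± 10.0), and the fiber tracts were above the hippocampus in 5 of 6 sections. *Cntnap4* was highest in the hypothalamus (54.7 ± 2.27), above the cortex (34.9 ± 6.26) in 6 of 6 sections, and lowest in the hippocampus (20.4 ± 4.03) and the fiber tracts (19.1 ± 5.40), which did not differ beyond their spread. The top region thus differed between these 3 genes.

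*Cntnap1* was highest in the thalamus (352 ± 47.9), above the cortex (335 ± 45.4) in 6 of 6 sections, and lowest in the fiber tracts (168 ± 58.2). *Cntn1* was likewise highest in the thalamus (474 ± 84.6), above the hippocampus (395 ± 45.8) in 6 of 6 sections, and its lowest regions were the striatum (285 ± 32.0) and the fiber tracts (280.5 ± 68.7), which overlapped. For *Cntnap2* the order was taken over the 4 P21 and adult sections. The striatum (36.2 ± 6.32) and the hypothalamus (35.8 ± 5.19) came first and did not differ beyond their spread, followed by the hippocampus (26.3 ± 5.50), the thalamus (26.0 ± 6.37) and the cortex (24.0 ± 4.38), which also overlapped. The fiber tracts (17.8 ± 5.88) came last, below the cortex in 4 of 4 sections. The median ratio of the highest to the lowest region within a section was, in these 4 sections, 1.93 for *Cntnap2*, 3.51 for *Cntn2*, 2.98 for *Cntn4*, 2.37 for *Cntnap4*, 1.82 for *Cntnap1* and 1.44 for *Cntn1*.

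**Figure D5:**
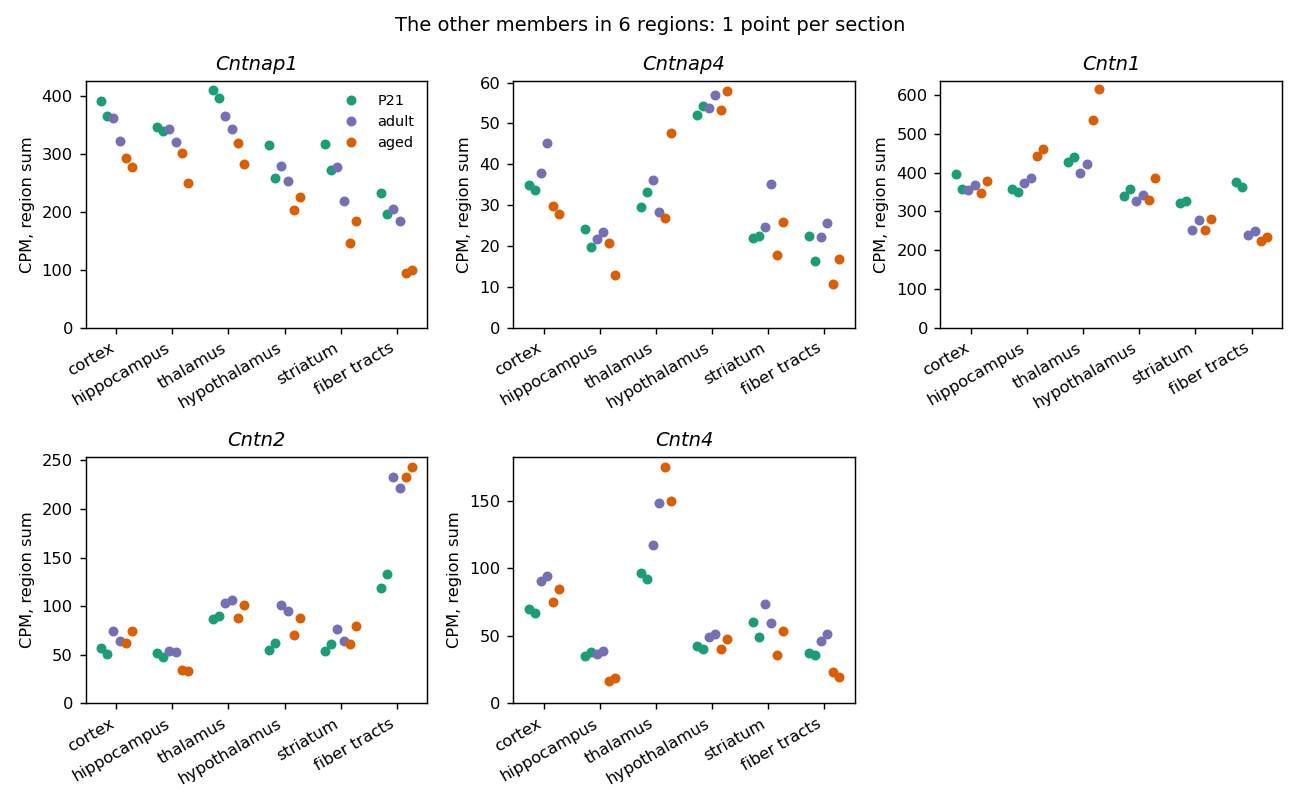
CPM of the other 5 genes in 6 regions (y axes from 0, a scale of its own for each gene), with 1 point per section colored by age. *Cntn2* peaks in the fiber tracts with both P21 sections (119 and 133 CPM) below the other 4, *Cntn4* and *Cntn1* peak in the thalamus, and *Cntnap4* peaks in the hypothalamus.

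Inside the hippocampus and the cortex, 24 ratios between zones were compared within sections by exact two-sided sign-flip permutation tests. With 6 sections the smallest p these allow is 0.0312 and with 5 it is 0.0625, so that no ratio could fall below 0.05 after Benjamini-Hochberg adjustment over all 24. At 6 sections 8 of the ratios reached it, with an adjusted p of 0.0938 each, and the ratios are given as sizes and counts of sections. *Cntnap2* was higher in CA1 than in the dentate gyrus in the 4 P21 and adult sections, by 1.33 to 2.94 (mean log2 ratio 1.83). It was also higher in the aged sections, but each had 1 UMI in CA1, so that their signs rest on single counts. Over all 6 sections the mean was 1.35 ± 0.96 (SD). In adult sections this meant 33.1 and 35.9 CPM in CA1 against 3.45 and 10.7 CPM in the dentate gyrus, the latter from 5 and 17 UMIs. *Cntn4* was also higher in CA1 than in the dentate gyrus in 6 of 6 sections (1.49 ± 0.63), whereas *Cntnap1* (-0.59 ± 0.25) and *Cntn1* (-0.30 ± 0.09) were lower in 6 of 6. In the cortex *Cntnap4* was lower in the upper than in the deep layers in 6 of 6 sections (-1.30 ± 0.20), with 20.6 and 21.6 CPM against 46.4 and 56.0 CPM in adults. *Cntn2* (-0.43 ± 0.11) and *Cntn1* (-0.36 ± 0.06) were also lower in the upper layers in 6 of 6 sections, and *Cntn4* was slightly higher (0.19 ± 0.06). For *Cntnap2* the upper layers were higher in 4 of 6 sections (0.15 ± 0.27).

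The genes most like each member over the 24 sums of the P21 and adult sections by region were found among 11429 genes, by Pearson's r of log2(CPM + 1), as a description of sums that share libraries and regions. For *Cntnap2* they were *B9d2* (r = 0.85), *Arxes1* (0.84) and *Apex2* (0.83), lower values than the first match of any other member. For *Cntn2* they were *Sept4* (0.97), *S100b* (0.97) and *Arsg* (0.96), for *Cntnap4* *Zwint* (0.93), *Polr2m* (0.93) and *Syt4* (0.92), and for *Cntn4* *Hlf* (0.92), *Plxdc1* (0.92) and *Rorb* (0.91). *Cntnap1* was most like *Sema6b* (0.93), *Dlat* (0.93) and *Rab3a* (0.93), and *Cntn1* most like *Arhgap35* (0.92), *Hexim1* (0.92) and *Psmc4* (0.88). Among the members themselves the closest pair was *Cntn1* and *Cntnap1*, the paranodal pair (r = 0.71), while *Cntn2* and *Cntnap2*, the juxtaparanodal pair, had r = -0.60, and r = -0.12 over all 36 sums with the aged sections. The negative r was not particular to that pair. Over the 24 sums *Cntn2* had r = -0.61 with *Cntnap1*, -0.37 with *Cntn1*, -0.13 with *Cntnap4* and 0.10 with *Cntn4*. With the 12 sums of the aged sections included, the first match of *Cntnap2* became *Oxa1l* (r = 0.95), followed by *Tmem175* (0.94) and *Hdgf* (0.93). *Cntnap2* was nearly absent from the aged sums, so its r values over all 36 sums largely follow the gap between aged and other sections. They are no measure of likeness across regions. The first match of *Cntn2* remained *Sept4* (0.97), followed by *Kif13a* (0.96) and *Arsg* (0.96). Over these 36 sums *Cntnap1* was most like *Thy1* (0.96), *Atp1b1* (0.95) and *Syp* (0.95), *Cntnap4* like *Polr2m* (0.90), *Flywch1* (0.89) and *Gprasp1* (0.88), *Cntn1* like *Map1b* (0.89), *Acsl4* (0.88) and *Uqcrfs1* (0.88), and *Cntn4* like *Plxdc1* (0.93), *Rorb* (0.91) and *Cit* (0.91).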

How the data were processed

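The authors counted UMIs per probe-targeted gene and spot with Space Ranger against mm10, and deposited these raw counts. By the methods and the headers of the counts, the version was 2.0.0 for P21 and adult and 3.1.1 for aged sections. The submitters' processing notes list 2.1.0. The deposited per-gene spatial tables gave Moran's I (a score). Spots with under 250 genes or 500 UMIs were left out. Spots were clustered (scanpy 1.11.5, leidenalg 0.10.2; 3000 variable genes, 10 components, resolution 0.6), and counts were summed per section and per section and region of at least 20 spots. edgeR 4.0.16 fitted quasi-likelihood models over all 6 sections, testing genes seen in at least 10% of spots, with Benjamini-Hochberg adjustment over all genes; a call needs adjusted p below 0.05 and over 1.5-fold. The tests were checked on simulated counts with known changes. The study calls the 2 sections of an age biological replicates. Members and lists were chosen with earlier results of these data known. Named genes are the members, the other family genes and neurexins (1 gene is not reported here), the called partners with the 5 largest changes, and each member's 3 most similar genes with at least 5 CPM on average. Replicate numbers did not pair sections (correlation of deviations 0.022 for P21 and adult, -0.177 for aged and adult). Exact intervals and limits for 0 counts cover counting error only.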

Additional observations from a re-analysis of the deposited data

Results flagged for a closer look

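The age difference between P21 and adult sections varied between the 6 regions for *Cntn1* (edgeR adjusted p = 7.47e-05) and *Cntn2* (edgeR adjusted p = 0.000345), by the test of the region-by-age terms. Without the fiber tracts the same test gave an edgeR adjusted p of 0.0596 for *Cntn1* and 0.0192 for *Cntn2*. With regions assigned by marker panel these values were 0.00222 and 0.00290. Groups of 2 sections are too small for a search for single outlying sections.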

How the results depend on the processing

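Over 44 results and 420 alternative values, 381 kept their side and size, and no called value changed sign. With single sections left out, 2 values near 0 did, *Cntn1* between aged and adult (-0.04 to 0.08) and *Cntnap4* between P21 and adult (-0.07 to 0.10). The whole-section fall of *Cntnap2* stayed between -5.77 and -5.22 with any 1 section left out (its regional median between -5.70 and -5.44). Without a filter on detected spots more genes were tested. Then 1460 genes passed between P21 and adult instead of 586, and 5148 between aged and adult instead of 1031. The rise was steeper in the aged comparison, and how much of either rise came from the number of genes tested was not tested. Leaving out single sections gave 2448 to 3319 regional calls between P21 and adult instead of 4033, 0 to 1 member called between P21 and adult over whole sections, 1 to 2 partners between P21 and adult, and 1 to 3 further family genes and 0 to 2 partners between aged and adult. Scaling by library size alone left 1 further family gene called in aged sections instead of 2. Without the fiber tracts 1 member instead of 2 varied by region between P21 and adult. For regions against the mean of the others, marker-panel regions gave 6 and the P21 and adult sections alone gave 7 of the 11 calls, and leaving out single sections 8 to 12. The cause of these moves was not tested except where given. The replicate block changed no call of a member and gave 588 and 1033 genes over whole sections; with the numbers crossed between aged and adult sections, an alternative chosen after seeing the data, 1036 genes passed. Regional *Cntnap2* values in aged sections rest on 2 to 24 UMIs, and differences between its regional falls were not tested.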
